A study of Mus musculus with 3 samples.

Results

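Long-term haematopoietic stem cells given 2.5 Gy of gamma radiation were set against the same kind of cells given 0.02 Gy, gene by gene, 2 hours after exposure. The cells had been sorted from mouse bone marrow for Kit, Sca and CD150 and against lineage markers, Flk2 and CD48, and were cultured overnight in the serum-free medium StemSpan SFEM before irradiation. Each dose was measured once, on an Affymetrix whole-transcript array. The remaining array held cells at 0 Gy. Its levels are given for orientation and entered neither the rule for taking genes in nor the differences. The exception is the differences after quantile normalization, which was run over all arrays. Strain, age, sex and number of the mice were not given in the sources used here.

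A gene was taken into the comparison when it had a name in the array annotation and its deposited level was at or above a minimum (log2) on both irradiated arrays. Of 23185 named genes, 10570 met this, 10765 were below it on both arrays and 1850 on 1 of them. The minimum falls between the lower of the 2 levels of Sult5a1 (4.55004) and that of Dgcr2 (4.54995). With multigene families and predicted genes left out, these are the genes just inside and just outside it. Next to them were Col3a1 (4.55008) inside and Ptar1 (4.54986) outside. A difference is the log2 level at 2.5 Gy minus the log2 level at 0.02 Gy, so 1 stands for 2-fold. With 1 array per dose there is no replicate check and no test, so 2-fold was used as the size for counting.

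Ionising radiation breaks DNA, and the kinases that sense the breaks stabilise p53 and release NF-κB from its inhibitors. p53 switches on genes of cell cycle arrest, repair and cell death together with its own antagonist Mdm2. NF-κB switches on chemokine and survival genes together with its own inhibitors, so that both responses carry negative feedback. Long-term stem cells are the mostly dormant cells at the top of the blood system.

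At least 2-fold higher at 2.5 Gy were 98 genes, 0.927% of the 10570, and 84 genes were at least 2-fold lower (0.795%). Multigene families and predicted genes, whose probes can share sequence, made up 42 and 31 of these, leaving 56 higher and 53 lower genes outside them. The median difference over all genes was −0.01, with a robust SD over genes of 0.30, and 58.2% of genes lay within 0.25 of 0. Above 0 were 48.7% of all genes and below 0 51.1%, the shares beside which the counts of each gene list stand. For 2-fold those shares are 0.927% and 0.795%. At 1.5-fold the shares were 4.77% higher and 5.15% lower, and at 3-fold 0.161% and 0.114%. No gene in the lowest 2 deciles of mean level, up to 5.01, could be 2-fold apart, since both of its levels had to be at or above the minimum.

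**Figure D1:**
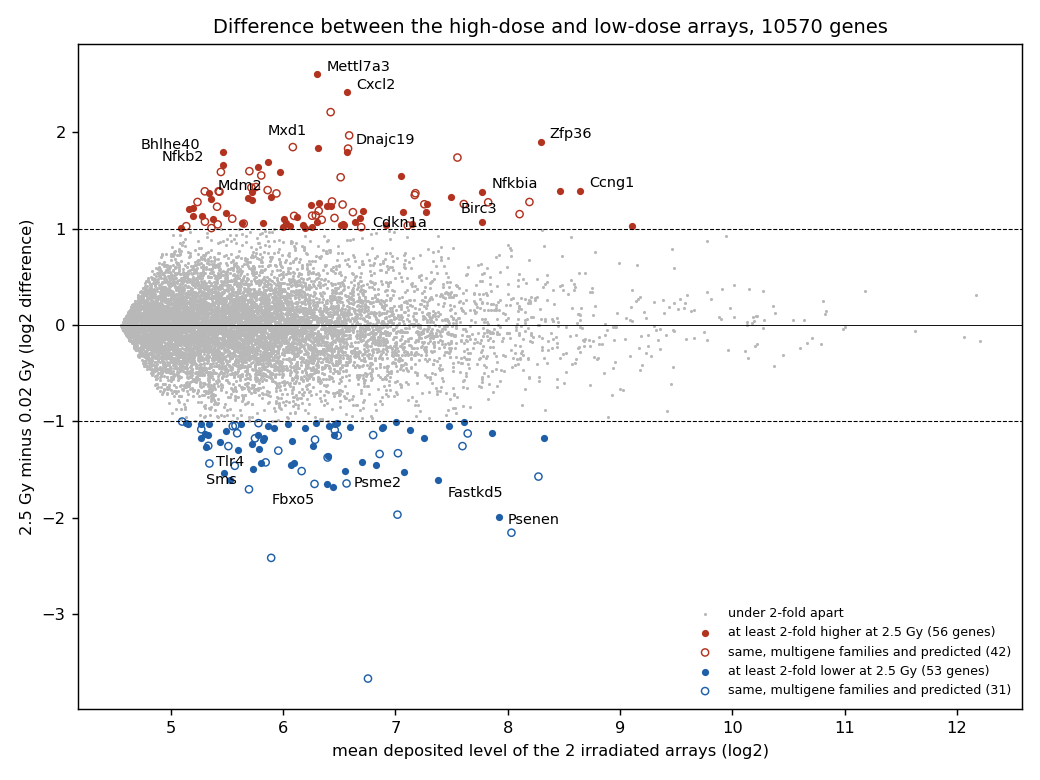
Each dot is 1 of 10570 genes. The x axis gives the mean deposited level of the 2 irradiated arrays (log2) and the y axis the difference, 2.5 Gy minus 0.02 Gy (log2); dashed lines mark 2-fold. Filled red and blue dots are the 56 higher and 53 lower genes outside multigene families, and open circles the 42 and 31 inside them. Cxcl2, Zfp36, Ccng1 and Nfkbia stand high among the genes above, and Psenen, Fbxo5 and Fastkd5 low among those below.

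Marker genes of long-term stem cells, the sorting markers Kit and Slamf1 among them, and of cells selected against were read on both arrays. All 11 stem cell marker genes measured were at or above the minimum, with a median level of 6.22 at 0.02 Gy and 6.12 at 2.5 Gy. Some were only just above it, such as Hoxb5 at 4.59 and 4.63. Kit, the stem cell factor receptor, was at 8.78 and 8.50, and Slamf1, which encodes CD150, at 4.75 and 4.84. Of 8 genes of markers selected against, 5 were under the minimum on at least 1 irradiated array, Cd48 among them at 3.31 and 3.40. Flt3, the Flk2 gene, stood at 4.95 and 4.93, Itgam at 5.15 and 4.73, and Klrb1c, a natural killer cell receptor gene, at 6.91 and 6.84. Summed over their linear levels, markers of mature myeloid cells came to 1173 at 0.02 Gy and 1261 at 2.5 Gy (15 of 29 at or above the minimum), lymphoid markers to 965 and 1050 (10 of 33), erythroid markers to 991 and 973 (8 of 19), megakaryocyte and platelet markers to 3063 and 2988 (20 of 25) and endothelial and stromal markers to 803 and 849.7 (10 of 22). No marker of these 5 lists was 2-fold apart between the doses. Among the mature myeloid markers at or above the minimum, Elane was lowest (−0.82) and Mpo highest (0.54). Mcpt8, a basophil protease gene on none of the 5 lists, was at 7.08 and 5.72. The part of such cells in the differences below was not tested. Fewer cells of a type and less RNA per cell cannot be told apart in such samples.

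Among the genes standing higher at 2.5 Gy, 5 outside the families carried the NF-κB consensus in their RefSeq promoters. They are shown with the 150 bases before the annotated start (GRCm38.p6, 5′ to 3′ in the direction of the gene), in lower case with matches to the consensus in capitals, because they are a secreted product, an inhibitor and a subunit of the same pathway whose levels are given next.
Cxcl2, chr5:90903749-90903898, plus strand: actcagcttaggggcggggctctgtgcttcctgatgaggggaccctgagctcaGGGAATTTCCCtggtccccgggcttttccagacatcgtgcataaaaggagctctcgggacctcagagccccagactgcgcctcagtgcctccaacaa
Nfkbia, chr12:55492648-55492797, minus strand: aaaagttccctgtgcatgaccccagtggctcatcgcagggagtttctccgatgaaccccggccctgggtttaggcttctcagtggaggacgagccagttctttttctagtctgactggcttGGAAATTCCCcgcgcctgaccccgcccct
Nfkb2, chr19:46304587-46304736, plus strand: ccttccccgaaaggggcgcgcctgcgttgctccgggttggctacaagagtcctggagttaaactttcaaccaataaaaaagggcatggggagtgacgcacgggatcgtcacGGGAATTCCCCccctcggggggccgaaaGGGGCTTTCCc
Tnfaip3, chr10:19015411-19015560, minus strand: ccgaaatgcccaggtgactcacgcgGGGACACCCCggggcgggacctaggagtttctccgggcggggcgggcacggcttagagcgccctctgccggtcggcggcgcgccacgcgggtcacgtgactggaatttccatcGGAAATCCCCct
Ltb, chr17:35194357-35194506, plus strand: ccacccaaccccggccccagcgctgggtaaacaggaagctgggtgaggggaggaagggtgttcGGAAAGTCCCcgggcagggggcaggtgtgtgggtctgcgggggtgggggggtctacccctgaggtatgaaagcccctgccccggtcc
In Cxcl2 a pair of overlapping matches begins 97 bases before the start. In Nfkbia the match begins 29 bases before it and in Ltb 87. Nfkb2 has overlapping matches from 39 bases before its start and another 11 bases before it. In Tnfaip3 the matches begin 125 and 12 bases before the start. Nfkb2 has 3 annotated promoters and Tnfaip3 has 2, and a single one of each is shown. The consensus was searched on both strands over 250 bases before to 50 after each start. Of the 56 higher genes outside the families 39 had a promoter in the table, and 5 of these 39 genes (12.8%) held a match; of the 53 lower genes 40 had one and 3 (7.5%) held a match. Over all 27025 genes in the table the share was 5.14%, and over the 8237 genes of the comparison found there 6.01%. The NF-κB consensus was 1 of 7 motifs searched. For those without a promoter shown, shares are given for the 39 higher genes and then the 8237 genes. They were 17.9% and 11.1% for the E-box, 46.2% and 41.7% for the CCAAT box and 10.3% and 6.39% for AP-1. For the cAMP response element they were 0% and 3.10%, with 7.5% of the 40 lower genes. A match is a string of letters and says nothing about binding in these cells.

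Among the genes of NF-κB itself, 2 subunit and 2 inhibitor genes were at least 2-fold higher at 2.5 Gy. Of 23 genes measured on this list, 14 were at or above the minimum on both arrays; 11 of the 14 were above 0, 4 were at least 2-fold higher and none lower. Their median difference was 0.54, beside a median of −0.01 and an upper quartile of 0.19 over all genes. Nfkb2 (Entrez gene 18034), which encodes the p100 precursor of the p52 subunit and is itself an NF-κB target, was at 5.04 without radiation, 4.63 at 0.02 Gy and 6.29 at 2.5 Gy. The difference between the doses was 1.66, or 3.16-fold. Rela (19697), a subunit with an activation domain, was at 6.18, 6.48 and 7.66 in the same order, 2.26-fold higher at 2.5 Gy than at 0.02 Gy. Relb, the partner of p52, was at 5.45, 5.06 and 5.95 (difference 0.89), and Rel, the lymphoid subunit, at 5.37, 5.92 and 6.15 (0.22). These 4 subunit genes were highest on the high-dose array.

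The inhibitors differed among themselves. Nfkbia (18035), which encodes IκBα and holds NF-κB in the cytoplasm, was at 7.07 without radiation, 7.08 at 0.02 Gy and 8.46 at 2.5 Gy, a 2.61-fold difference between the doses. Tnfaip3 (21929), which encodes the ubiquitin-editing enzyme A20, was at 4.94, 4.65 and 6.03 (2.60-fold). For both, the 0 and 0.02 Gy arrays lay close together and the 2.5 Gy array stood apart above them. Tnip1, which encodes a partner of A20, was at 4.98, 5.15 and 6.01 (0.86). Of the other IκB family genes on the list, Bcl3 was a member, at 5.02, 4.68 and 5.28 (0.59). The rest were under the minimum on the low-dose array and are no members. Nfkbie was at 4.62, 4.44 and 6.63, Nfkbib at 4.65, 4.44 and 6.08, Nfkbiz at 4.64, 4.32 and 5.01, and Nfkbid at 3.96, 4.21 and 4.22, the last with no difference between the doses beyond 0.01. Tnip3, another partner of A20, was also under it there, at 4.41, 4.30 and 5.82. The kinase genes of the pathway showed smaller differences, with Ikbkb at 0.49, Tbk1 at 0.01 and Ikbke at −0.23. The deubiquitinase gene Cyld was at −0.13 and Tax1bp1, an A20 adaptor gene, at −0.01.

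Secreted and cell surface genes of inflammation were led by Cxcl2 (20310), a chemokine that draws neutrophils. Cxcl2 was at 6.02 without radiation, 5.36 at 0.02 Gy and 7.78 at 2.5 Gy. The difference of 2.42, or 5.34-fold, was the second highest of the 10570 genes. Of 20 chemokine and cytokine genes, 15 were above 0 with a median of 0.23, and 2 were at least 2-fold higher. The second was Ltb, the gene of lymphotoxin beta, at 6.11, 6.39 and 7.43 (1.04). Ccl4, a chemokine gene for monocytes and T cells, was at 7.45, 7.12 and 7.81 (0.70), its neighbour in function Ccl3 at 6.34, 6.76 and 7.40 (0.64), and Il18, a cytokine gene of the interleukin-1 family, at 5.02, 5.80 and 5.04 (−0.77). Tnf was at 5.46, 5.33 and 5.56. Of the 19 chemokine and cytokine genes measured but not members, 6 were above 0. Icam1, which encodes a ligand for leukocyte integrins, was 1.02 higher, from 5.75 at 0.02 Gy to 6.77.

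Among receptors of the tumour necrosis factor family and their adaptors, Birc3 (11796) was the 1 gene of 17 that was 2-fold apart. It encodes the ubiquitin ligase cIAP2, which promotes survival signalling, and was at 6.62, 6.83 and 8.16 (2.52-fold). Traf1, an adaptor gene, was at 5.45, 5.56 and 6.43 (0.86), and Ltbr, the lymphotoxin beta receptor gene, at 6.89, 6.39 and 7.02 (0.63). Tnfrsf18, which encodes the receptor GITR, went the other way, at 6.54, 7.26 and 6.51 (−0.75). The median of the list was 0.11 with 11 of 17 above 0.

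Toll-like receptors, which sense microbial products and signal to NF-κB, were represented by 4 genes at or above the minimum. Of 15 genes of the Toll-like and interleukin-1 receptor pathway, 13 were below 0, with a median of −0.30; 1 was at least 2-fold lower and none higher. Tlr4 (21898), the receptor for lipopolysaccharide, was at 5.85 without radiation, 6.43 at 0.02 Gy and 5.14 at 2.5 Gy, a 2.45-fold difference. All 4 were below 0, and the others did not reach 2-fold: Tlr6 was at −0.64, Tlr9 at −0.46 and Tlr2 at −0.34. Tollip, an inhibitor of the pathway, was at −0.60 and Tab3, a subunit of its kinase complex, at −0.60. Above 0 were Irak1, a receptor-associated kinase gene, at 0.14, and Ticam1 at 0.52. The unirradiated level of Tlr4 was nearer that of the low dose. Of the 16 genes measured but not members, 7 were above 0.

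**Figure D2:**
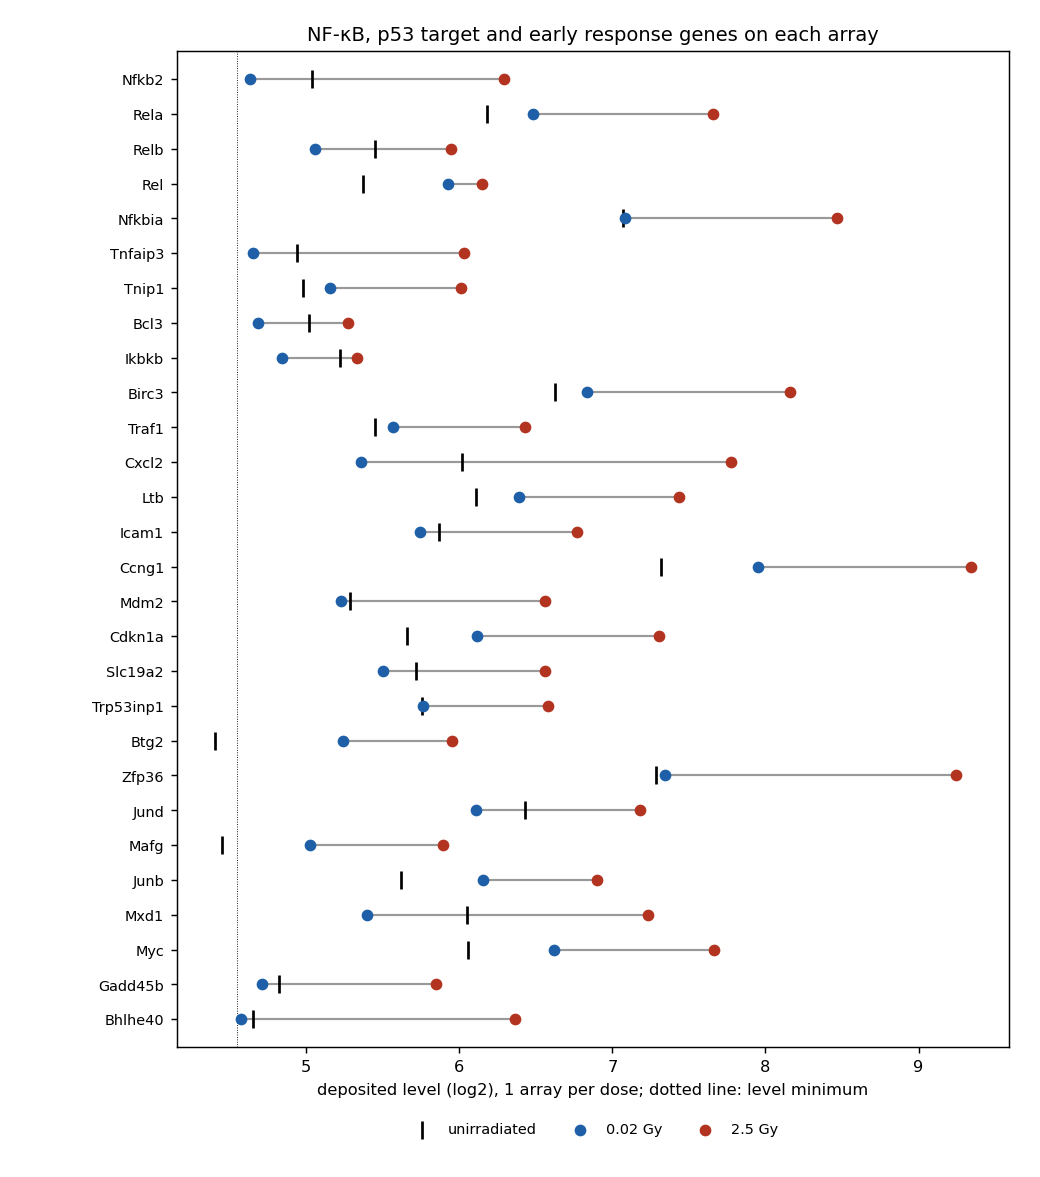
Deposited levels (log2, x axis) of 28 genes of NF-κB signalling, p53 targets and early response genes, 1 row each. Blue dots are the 0.02 Gy array, red dots the 2.5 Gy array and black ticks the unirradiated array, each a single array, and the dotted line marks the level minimum. The genes were picked as higher at 2.5 Gy, so every red dot lies to the right of the blue dot of its row.

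Among p53 targets, genes of cell cycle arrest and of the feedback on p53 were the furthest above 0. Of 37 p53 target genes, 25 were above 0 with a median of 0.15, and 4 were at least 2-fold higher and none lower. Ccng1 (12450), which encodes cyclin G1, was at 7.32 without radiation, 7.95 at 0.02 Gy and 9.34 at 2.5 Gy (2.63-fold between the doses). Mdm2 (17246), the ubiquitin ligase that degrades p53, was at 5.29, 5.23 and 6.56 (2.52-fold). Cdkn1a (12575), which encodes p21, an inhibitor of cyclin-dependent kinases, was at 5.65, 6.12 and 7.30 (2.28-fold). Of these 3, Mdm2 was at nearly 1 level on the 0 and 0.02 Gy arrays, and Ccng1 and Cdkn1a stood between on the low-dose array. The fourth was Slc19a2, a thiamine transporter gene, at 5.72, 5.50 and 6.56 (1.06).

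The promoters of 3 of them carry matches to the p53 half-site, and are shown with the 200 bases before the start in the same form, with the matches in capitals.
Cdkn1a, chr17:29090779-29090978, plus strand: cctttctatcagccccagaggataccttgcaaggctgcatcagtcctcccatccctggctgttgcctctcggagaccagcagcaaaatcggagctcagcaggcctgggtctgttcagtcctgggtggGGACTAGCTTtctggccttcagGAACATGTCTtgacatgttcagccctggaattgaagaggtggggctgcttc
Ccng1, chr11:40755287-40755486, minus strand: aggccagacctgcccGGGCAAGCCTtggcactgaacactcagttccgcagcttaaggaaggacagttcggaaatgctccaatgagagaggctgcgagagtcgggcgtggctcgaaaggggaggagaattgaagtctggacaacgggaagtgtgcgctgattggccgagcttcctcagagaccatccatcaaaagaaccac
Mdm2, chr10:117710759-117710958, minus strand: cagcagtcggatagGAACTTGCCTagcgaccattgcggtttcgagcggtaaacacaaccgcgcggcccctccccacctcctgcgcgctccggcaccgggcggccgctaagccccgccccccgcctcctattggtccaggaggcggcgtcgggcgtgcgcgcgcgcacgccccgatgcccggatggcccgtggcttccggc
In Cdkn1a the matches begin 73 and 51 bases before the start, in Ccng1 185 and in Mdm2 186. Cdkn1a has 2 annotated promoters, of which a single one is shown. A half-site match was found in 5 of the 39 higher genes with a promoter (12.8%), in 2 of 40 lower genes (5%) and in 9.55% of all 27025 genes, so the letters are common.

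The rest of the p53 list was mixed. Trp53inp1, a gene of stress-induced cell death, was at 5.75, 5.76 and 6.58 (0.82), and the antiproliferative gene Btg2 at 4.40, 5.24 and 5.95 (0.71). Pidd1, Mdm4, Ppm1d and Gtse1 lay between 0.26 and 0.38. Sesn1, a stress response gene, was at 4.71, 5.599 and 5.0005 (−0.60), the repair genes Xpc and Ddb2 at −0.52 and −0.24, and Ephx1, an epoxide hydrolase gene, at −0.54. The cell death genes Bbc3 and Pmaip1 were under the minimum on at least 1 array; Bbc3 was at 3.99, 4.31 and 4.66 and Pmaip1 at 4.17, 4.36 and 4.59. The median of 18 BCL2 family and caspase genes was −0.04, and 8 of them lay above 0. The median was −0.05 for 29 genes of double-strand break signalling and 0.02 for 36 of excision and mismatch repair, and no member of either was 2-fold apart. With a minimum of 6 on both arrays, and so over fewer genes, the medians were −0.39 and 0.17.

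Immediate-early genes, which need no new protein for their transcription, had a median of 0.21, and 16 of 23 members lay above 0. Zfp36 (22695), which encodes tristetraprolin, the protein that marks inflammatory mRNAs for decay, was at 7.28 without radiation, 7.34 at 0.02 Gy and 9.24 at 2.5 Gy, a 3.73-fold difference. Jund, an AP-1 subunit gene, was at 6.43, 6.11 and 7.18 (1.07), Mafg, a small Maf gene, at 4.45, 5.03 and 5.89 (0.87) and Junb at 5.62, 6.15 and 6.90 (0.75). Ier3 was at 7.26, 7.55 and 8.28 (0.73). Zfp36 and Jund stood high on the 2.5 Gy array alone, and the levels of Mafg and Junb were ordered by dose over the 3 arrays. Jun itself was under the minimum on the low-dose array, at 4.05, 3.39 and 5.75. Of the 16 genes of the list measured but not members, 10 were above 0. Fos was at 3.61, 3.87 and 3.92, Fosb at 3.61, 3.70 and 3.68, and Fosl1 at 3.44, 3.69 and 3.43. Cd69, an early lymphocyte activation gene outside this list, was also under the minimum on the low-dose array, at 3.99, 3.63 and 6.01. Klf2, Klf10 and Zfp36l1 each lay 0.27 below 0. The Zfp36 promoter is shown with the 150 bases before its start and its CArG box, the site class bound by serum response factor, in capitals.
Zfp36, chr7:28379229-28379378, minus strand: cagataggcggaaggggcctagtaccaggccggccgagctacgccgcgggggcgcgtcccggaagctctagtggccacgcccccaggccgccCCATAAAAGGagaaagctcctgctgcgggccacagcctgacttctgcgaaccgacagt
The match begins 58 bases before the start, and this class of match was in 1 of 39 higher genes (2.56%) and in 1.81% of all genes in the table.

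In the Myc network both an activator and an antagonist were higher. Mxd1 (17119), which encodes a repressor that competes with Myc for Max, was at 6.05, 5.39 and 7.23 (3.58-fold between the doses), and Myc (17869) at 6.06, 6.62 and 7.67 (2.06-fold). Max, their shared partner, was at 7.16, 7.67 and 7.51 (−0.16) and Mxd3 at −0.39. The clock gene Bhlhe40 (20893), a repressor that responds to many stresses, was at 4.65, 4.57 and 6.36 (3.46-fold). It was the 1 of 16 clock genes 2-fold apart, with Per1 at 0.49 and Cry2 at −0.59.

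Brakes on MAP kinases and stress adaptors followed. Gadd45b, an NF-κB-induced stress gene, was at 4.82, 4.71 and 5.85 (1.14). Dusp16, a phosphatase gene for JNK and p38, was at 5.52, 5.43 and 6.31 (0.87), Dusp3 at 0.67 and Dusp1 at 0.64. Gadd45a was at −0.23, and 8 of the 12 members were above 0 with a median of 0.25. The median was 0.09 with no minimum and 0.13 with the minimum on the higher of the 2 arrays. Genes measured but not members went both ways. Spred2, an inhibitor of Ras signalling, was under the minimum on the low-dose array, at 3.61, 3.26 and 4.90. Gadd45g was at 3.69, 3.89 and 3.34 and Dusp7 at 3.74, 3.72 and 3.26.

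Sterol and fatty acid synthesis genes lay above 0 in 24 of 30 cases, with a median of 0.20. Hmgcs1, an early enzyme of cholesterol synthesis, was the 1 gene at least 2-fold higher, at 5.87, 6.01 and 7.06 (1.05). Acaca, which makes malonyl-CoA, was at 5.12, 4.56 and 5.26 (0.70), Sc5d at 0.66, and the cholesterol carrier gene Stard4 at 6.09, 6.06 and 6.68 (0.62). Fasn was at 0.62, Msmo1 at 0.55 and Dhcr7 at 0.54, while Elovl5, an elongase gene, was at −0.46 and Insig1, which restrains the pathway, at −0.11.

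**Figure D3:**
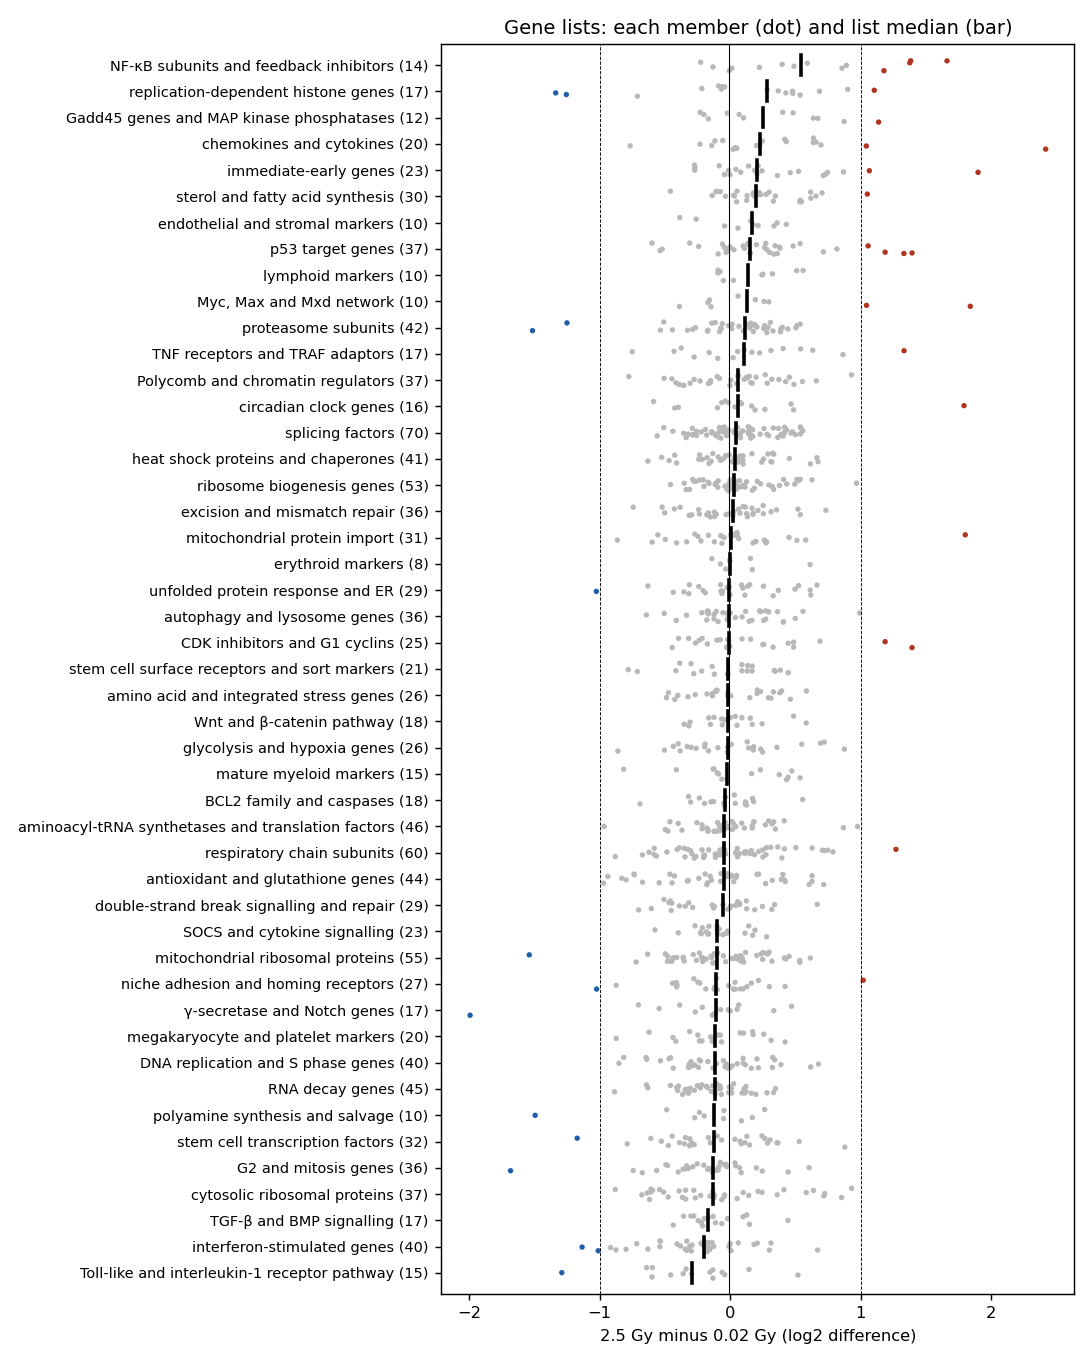
The 47 gene lists, with the number of members at or above the minimum in brackets, ordered by median difference. Each dot is a gene (red at least 2-fold higher at 2.5 Gy, blue at least 2-fold lower, gray otherwise), the x axis is the log2 difference, thick bars are list medians and the thin solid line the median of all genes (−0.01). At this minimum NF-κB genes have the highest median (0.54) and the Toll-like and interleukin-1 receptor genes the lowest (−0.30). At a minimum of 6 on both arrays chemokines and cytokines are highest (0.64) and double-strand break genes lowest (−0.39). Those 2 medians rest on fewer genes than the brackets give.

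Interferon-stimulated genes lay mostly below 0 at 2.5 Gy against 0.02 Gy. Of 40 members 32 were below 0, 7 above and 1 level, with a median of −0.20; 2 were at least 2-fold lower and none higher. Rsad2, which encodes the antiviral protein viperin, was at 5.29 without radiation, 5.88 at 0.02 Gy and 4.74 at 2.5 Gy (−1.13). Parp9, an ADP-ribosylation gene of the same response, was at 4.96, 5.64 and 4.63 (−1.01; −0.99 after quantile normalization). Ifi203 was at 7.22, 7.99 and 7.08 (−0.92) and Xaf1 at 7.02, 7.26 and 6.39 (−0.88). The unirradiated array stood nearer the high dose for Rsad2 and Parp9. The regulators Irf9 (0.67) and Irf1 (0.30) were above 0.

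The lowest gene outside the families was Psenen (66340), a small subunit that activates gamma-secretase, the enzyme that releases the Notch intracellular domain. It was at 7.26 without radiation, 8.92 at 0.02 Gy and 6.92 at 2.5 Gy, so it was 3.98-fold higher at 0.02 Gy than at 2.5 Gy. Of 5 gamma-secretase subunit genes in the comparison 4 were below 0, with the scaffold Ncstn at −0.70 (5.92, 6.79 and 6.09), Aph1a at −0.54 and Psen2 at −0.11. Aph1b was at 0.47. The Notch receptor genes Notch1, Notch2 and Notch3 were at −0.07, −0.01 and −0.14, and Notch4 at 0.33. The targets Hes1 and Hes5 were at −0.39 and 0.07, and the median of the whole list of 17 was −0.11.

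Among cell cycle genes outside the histones, Fbxo5 was the 1 gene of the mitosis and replication lists that was at least 2-fold lower. Fbxo5 (67141), which encodes EMI1, which holds the anaphase-promoting complex in check, was at 6.63, 7.29 and 5.61 (3.21-fold lower at 2.5 Gy). Of 36 G2 and mitosis genes 28 were below 0, with a median of −0.13. Tpx2, a spindle assembly gene, was at 5.40, 5.70 and 4.96 (−0.74) and Ube2c, the ubiquitin-conjugating enzyme of the anaphase-promoting complex, at 6.13, 6.84 and 6.16 (−0.67), while Ccna2 was at 0.61. Of 40 genes of DNA replication 25 were below 0, with a median of −0.12 that was −0.02 at a minimum of 6, and the lowest were the clamp loader subunit Rfc4 (4.94, 5.90 and 5.05) and the kinase gene Cdc7 (4.91, 5.53 and 4.71). Pcna, the replication clamp, was at 8.19, 8.76 and 8.11 (−0.64). Histone genes were split, with a list median of 0.28, a mean of 0.09 and a median of −0.04 at a minimum of 6. H1f2 was at 4.76, 4.99 and 6.10 (1.10) and H4c9 at 5.52, 6.25 and 7.15 (0.90). H2bc7 was at 5.03, 7.53 and 6.19 (−1.34) and H2bc15 at 7.68, 8.22 and 6.97 (−1.26). Near-identical copies of histone genes can share probe sequence, so each value is uncertain.

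Of 42 proteasome genes 2 were at least 2-fold lower and none higher. The list had a median of 0.11 and a mean of 0.01, with 25 above 0 (59.5%, against 48.7% of all genes). Psme2 (19188), a subunit of the interferon-induced activator PA28, was at 6.51, 7.31 and 5.79 (2.86-fold lower at 2.5 Gy), and Pomp, the chaperone of proteasome assembly, at 6.03, 6.89 and 5.64 (2.38-fold lower). Of the 5 genes of PA28 and the immunoproteasome, a set chosen after its values were seen, 4 were below 0, with Psmb9 at −0.53, Psmb8 at −0.17 and Psmb10 at −0.11, and Psme1 at 0.26. Psme3, a nuclear activator gene, was at 4.91, 5.15 and 5.69 (0.54).

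Stem cell transcription factors had a median of −0.13, and 18 of 32 were below 0, near the share of all genes (51.1%). Ikzf1, which encodes the lymphoid regulator Ikaros, was at 5.54, 6.41 and 5.24 (2.25-fold lower at 2.5 Gy). Meis1, a homeobox partner of stem cell programmes, was at 7.05, 7.58 and 6.79 (−0.79) and Gata3 at 5.97, 5.75 and 5.14 (−0.61). Sox4 was higher, at 5.66, 6.16 and 7.04 (0.88). Among niche adhesion genes Itga4, the alpha 4 integrin chain that binds stromal VCAM1, was at 5.30, 5.85 and 4.83 (−1.02; −0.99 after quantile normalization), against Icam1 at 1.02. Cd34 was at 7.04, 7.50 and 6.72 (−0.78) and Selp, a platelet and endothelial adhesion gene, at −0.87.

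**Figure D4:**
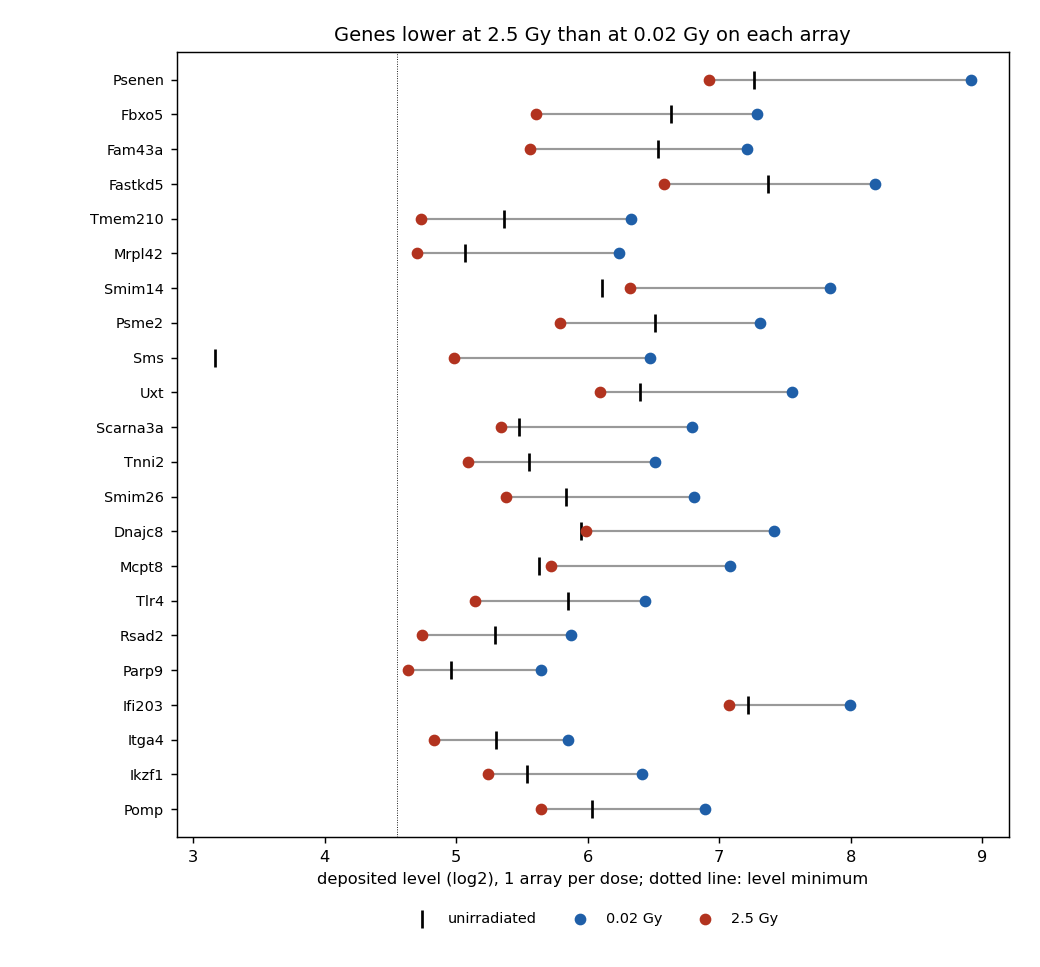
Deposited levels (log2, x axis) on each array of the 15 lowest genes outside the families and of 7 further lower genes of the interferon, Toll-like receptor, adhesion, transcription factor and proteasome lists. Symbols are as in the plot of response genes, and each point is a single array. For 13 of the 15 lowest genes the unirradiated tick lies nearer the 2.5 Gy dot than the 0.02 Gy dot.

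The other lower genes outside the families had varied roles. Mrpl42, a mitochondrial ribosomal protein gene, was at 5.06, 6.24 and 4.70 (−1.54), Fastkd5, which acts in mitochondrial RNA processing, at 7.37, 8.19 and 6.58 (−1.61), and Dnajc8, a co-chaperone linked to splicing, at 5.95, 7.41 and 5.99 (−1.43). Sms, the spermine synthase gene, was at 3.16, 6.47 and 4.98 (−1.49) and so stood lowest on the unirradiated array. Uxt, a prefoldin-like gene, was at 6.39, 7.55 and 6.10 (−1.46), Fam43a at 6.53, 7.21 and 5.56 (−1.65), Smim14 at 6.11, 7.84 and 6.32 (−1.52) and Mcpt8, a basophil protease gene with close relatives and so uncertain, at 5.63, 7.08 and 5.72 (−1.36). Edem2, of endoplasmic reticulum quality control, was at −1.03. On the higher side were Dnajc19, a mitochondrial import gene (5.24, 5.67 and 7.47; 1.80), Ndufa7, a complex I subunit gene (5.07, 5.69 and 6.96; 1.27), Znhit1, a chromatin remodeller subunit gene (5.98, 5.02 and 6.71; 1.69), B4galt5, a glycosyltransferase gene (5.30, 4.96 and 6.60; 1.64) and Dph3, of diphthamide synthesis (5.24, 5.18 and 6.77; 1.59). Mettl7a3 had the highest difference of all, 2.60 (5.81, 5.004 and 7.61), but it has near-identical paralogs and is uncertain.

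The unirradiated array, which took no part in the choice, placed the 2 directions differently. Of the 56 higher genes outside the families it lay nearer the 0.02 Gy level for 38 and nearer the 2.5 Gy level for 18, and for 39 it lay between the doses. Of the 53 lower genes it lay nearer the 2.5 Gy level for 42 and nearer the 0.02 Gy level for 11. The 2.5 Gy level was at least 2-fold from the unirradiated level for 26 higher and 5 lower genes, and the 0.02 Gy level for 7 and 16. With the families included the split was weaker for the higher genes. Of all 98 the unirradiated array lay nearer the 0.02 Gy level for 55 and nearer the 2.5 Gy level for 43, and the 2.5 Gy and 0.02 Gy levels were at least 2-fold from it for 39 and 25. Of all 84 lower genes it lay nearer the 2.5 Gy level for 63 and nearer the 0.02 Gy level for 21. How often it lay nearer either dose over all 10570 genes was not counted. These counts therefore have no general share to stand beside, here and for the lowest genes and small RNAs.

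Small RNAs and multigene families spread wider than other genes. Of 57 small nucleolar and Cajal body RNAs, which guide the modification of ribosomal and splicing RNAs, 6 were at least 2-fold higher and 3 lower, 15.8% in all, with an SD of 0.70 over genes. Among the 8909 protein-coding genes outside the families 1.11% were 2-fold apart and the SD was 0.34. Snord14e was at 7.19, 6.27 and 7.82 (1.55), Snord100 at 8.70, 7.78 and 9.16 (1.39) and Scarna3a at 5.47, 6.80 and 5.34 (−1.46). Snord71 was at 5.70, 4.56 and 5.76. For 8 of the 9 the unirradiated array lay nearer 2.5 Gy, so the low-dose array held the outlying level. The share 2-fold apart was 9.79% of 143 microRNAs, 9.57% of 94 immunoglobulin and T cell receptor segments and 5.56% of 162 olfactory and vomeronasal receptor genes, of which 8 were higher and 1 lower. Mir505 was at 5.33, 5.32 and 7.53 and Mir202 at 6.62, 7.10 and 4.69; whole-transcript probes cannot separate a mature microRNA from its precursor.

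**Figure D5:**
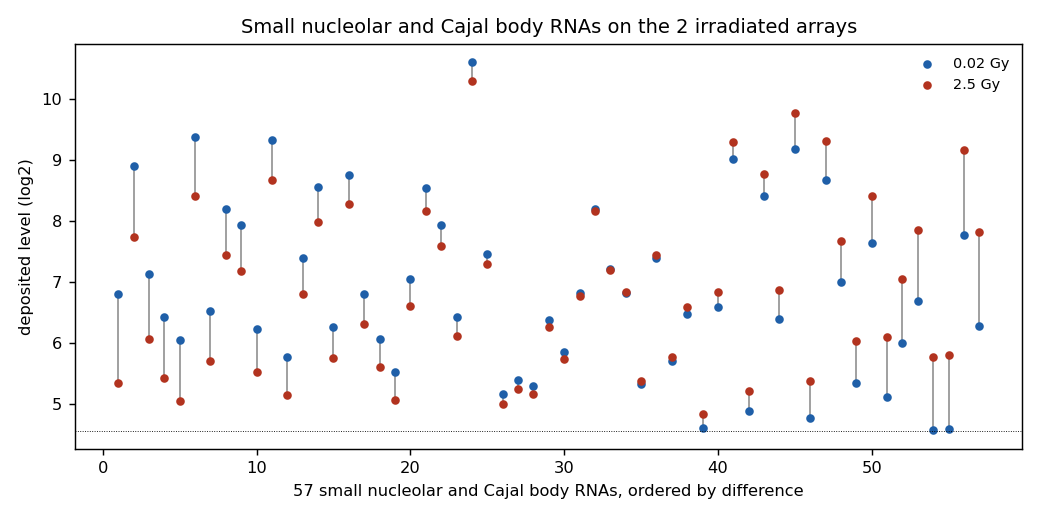
Deposited levels (log2, y axis) of 57 small nucleolar and Cajal body RNAs on the 0.02 Gy array (blue) and the 2.5 Gy array (red), ordered by difference along the x axis, 1 array per dose. The 3 lowest at the left are at least 2-fold lower at 2.5 Gy and the 6 at the right at least 2-fold higher; the dotted line marks the level minimum.

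Of the 47 lists 12 had a median above 0.1 and 13 below −0.1. List medians depended on which genes the minimum admitted. For chemokines and cytokines the median was 0.04 with no minimum and 0.64 with a minimum of 6 on both arrays. The latter rests only on Ccl5, Tgfb1, Ccl3, Ccl4 and Ltb, and leaves out Cxcl2. With no minimum it was −0.13 for the Toll-like and interleukin-1 receptor pathway. With the minimum of 6, and so over fewer genes, it was 0.32 for p53 targets and 0.52 for immediate-early genes. Ribosomal protein genes of the cytosol had a median of −0.13 with no member 2-fold apart, from Rpl27 at −0.88 to Rps9 at 0.93. The medians were 0.04 for 70 splicing factors, 0.03 for 53 ribosome biogenesis genes, where Nop16 was highest at 0.97, −0.05 for 60 respiratory chain subunits and −0.05 for 44 antioxidant genes. RNA decay genes had 32 of 45 members below 0 (median −0.12), and SOCS and cytokine signalling genes 18 of 23 (−0.10), with Jak2 at −0.58. TGF-beta and BMP genes had 13 of 17 below 0 (−0.17). Of the 2-fold genes 22 higher and 14 lower were on a list, and 35 higher and 41 lower genes outside the families were on none.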

How the data were processed

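The authors deposited log2 levels on 3 arrays for 25206 probe sets, each with an Entrez gene number. The submitters' processing notes name Partek without a version or role. Background correction, normalization and summarisation were not given in the sources used here, and that the values are log2 was taken from their range. Per the labels' protocols, RNA was purified with the RNeasy-micro kit and labelled with the Affymetrix whole-transcript sense target kit. Depth has no counterpart on arrays; their number limits the precision.

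Names came from GEO's platform annotation (23185 probe sets with 1 symbol, 0 with several, 2021 with none). Differences, counts and list medians were computed in Python 3.11.15 (numpy 2.4.6, pandas 2.3.3, statsmodels 0.14.6 for loess with a span of 0.3) and checked on simulated data. Of 2000 list entries, 1837 matched a measured gene, 3 through an older name. The 0.02 Gy and 2.5 Gy arrays were compared without a test. Members and lists were chosen with earlier results of these data known. Named by rule were the 15 highest and 15 lowest genes outside the families, each list's 2-fold genes filled up to 4 by size, and 22 signalling, p53 and sorting genes whatever their values, where measured. All other genes named, such as Tnip1, Ccl3, Ier3, Jun, Cd69, Trp53inp1 and Sesn1, were chosen after their values were seen. Promoters are RefSeq's (GRCm38.p6). The alternatives were 4 level minima, 3 scalings, 2 fold sizes, families left out and list means.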

Additional observations from a re-analysis of the deposited data

Results flagged for a closer look

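Probe sets that the annotation leaves unnamed were not used above. Of these, 990 met the level minimum on both irradiated arrays. Among them 16 were at least 2-fold higher at 2.5 Gy than at 0.02 Gy and 10 were at least 2-fold lower. They were singled out because a difference stood in data that the report does not use. Without names or replicates they can be read only as counts.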

How the results depend on the processing

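No paired analysis was possible because single arrays cannot be paired and no test was run. Counts are given as higher then lower, beside 98 and 84. Without a level minimum they were 284 and 231, with a minimum of 6 on both arrays 29 and 22, with the level minimum on the mean of the 2 arrays 158 and 132, and with it on the higher of them 216 and 181. At 1.5-fold they were 504 and 544, at 3-fold 17 and 12, and with multigene families and predicted genes left out 56 and 53. These counts follow from which genes each setting admits. Quantile normalization gave 97 and 68, median centring 96 and 94 and loess 101 and 79, within 1.5 times of the counts above. Of 376 list medians under the alternatives, 342 moved by less than 0.1 and 34 by more. In 14 lists 29 changed sign, 27 of them where the median had been within 0.1 of 0. The other 2, at a minimum of 6 and so with fewer genes, were replication-dependent histone genes (−0.042) and mitochondrial ribosomal proteins (0.0093). The median of NF-κB genes was 0.40 at that minimum and 0.69 with the minimum on the mean. That of chemokines and cytokines was 0.04 with no minimum. Under the 3 scalings all 615 differences of named genes stayed within a robust SD over genes of similar level, a wide bound. Of 53 named 2-fold genes, 3 ended below 2-fold under quantile normalization: Edem2 (−0.99), Itga4 (−0.99) and Parp9 (−0.99). No signal over background was at hand for genes near the minimum.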
